A study of Mus musculus with 9 samples.

Results

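The genes described here are 42 mouse genes of the antioxidant and glutathione system, taken by name as rows of a count table of 24062 gene symbols. They are the stress factor NRF2 (gene Nfe2l2), its inhibitor Keap1, genes that NRF2 is known to switch on, and the enzymes of the glutathione, thioredoxin, peroxide and NADPH systems. All 42 were found in the table, and all 42 were among the 14223 genes that passed the filter on low counts, with between 46 and 35835 reads per gene and library. The cells were C57BL/6 mouse embryonic fibroblasts (MEFs, connective tissue cells grown from embryos). Their labels call them non-senescent in every group, and RNA was taken on day 4 after lentiviral infection. The 3 groups of 3 libraries received an empty lentivirus, a virus carrying p21 or a virus carrying p16. Both proteins are inhibitors of the kinases that drive the cell cycle. The labels name neither the promoter of the virus nor the source of the replicates. How far the p-values measure more than technical spread is therefore not known, although the replicate 3 libraries stood apart, as given below. Reads of a gene were summed over all cells of a culture, and fewer cells of a type cannot be told apart from less RNA per cell.

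NRF2 is a transcription factor that KEAP1 holds in the cytoplasm and marks for destruction. Oxidants and reactive chemicals modify cysteines of KEAP1, NRF2 then accumulates, pairs with small MAF proteins and binds antioxidant response elements in DNA. Its targets make glutathione, reduce thioredoxin, remove peroxides, conjugate toxic compounds and supply NADPH, the electron donor on which these reactions draw. Because NRF2 is mainly set by the stability of its protein, the level of its transcript says little about its activity.

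The libraries held 44455730 to 63152239 reads, and levels are given as CPM, counts per 1000000 of the TMM-scaled library total. Both delivered genes were high in their own group, with Cdkn1a (p21) at 1773, 1429 and 1612 CPM in the p21 libraries against 349.8, 375 and 356 in the controls, and Cdkn2a (p16) at 1927, 1576 and 1691 against 36.9, 42.2 and 34.7. The fibroblast markers Col1a1 and Vim stood at 13478 and 4998 CPM in the controls, whereas the fibroblast markers Dcn and Lum were low at 2.65 and 0.744. The replicate 3 libraries of all 3 groups stood apart, with the X-inactivation transcript Xist at 181 to 251 CPM against at most 6.96 CPM elsewhere. Libraries with the same replicate number deviated together, so values with the number as a block are given where they change the call of a member or the count of a list. Of 18 macrophage and other leukocyte markers, none was at 0 in every library and 5 stayed under 1 CPM in every group. Summed over these markers, control libraries held 28.5 to 44.8 CPM, p16 libraries 37.0 to 66.5 and p21 libraries 47.6 to 66.1.

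Per kilobase of annotated exon, the controls held most transcript of small thiol enzymes. Txn1, the cytosolic thioredoxin, was highest at 310.4 ± 10.5 CPM per kb (SD, n = 3), followed by the peroxidase gene Gpx1 at 215 ± 15.2, the peroxiredoxin gene Prdx1 at 159 ± 7.07 and Gpx4, the peroxidase of membrane lipid peroxides, at 129.9 ± 3.92. The SDs of these 4 genes left no overlap between neighbours in that order. Nfe2l2 and Keap1 lay lower, at 25.2 ± 1.24 and 11.5 ± 0.595 CPM per kb. The lowest levels were those of Slc7a11, the cystine importer, at 0.812 ± 0.120, of the stress gene Osgin1 at 0.823 ± 0.129 and of the glutathione transferase gene Gstt1 at 1.02 ± 0.291 CPM per kb, and these 3 overlapped within their SDs. Hmox1, which encodes the inducible heme oxygenase, went from 50.8 ± 1.23 CPM per kb in the controls to 109 ± 7.89 with p21. Together the 42 genes took 0.495% to 0.509% of the counted reads in the controls, 0.510% to 0.527% with p16 and 0.558% to 0.575% with p21, ranges that did not overlap.

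**Figure D1:**
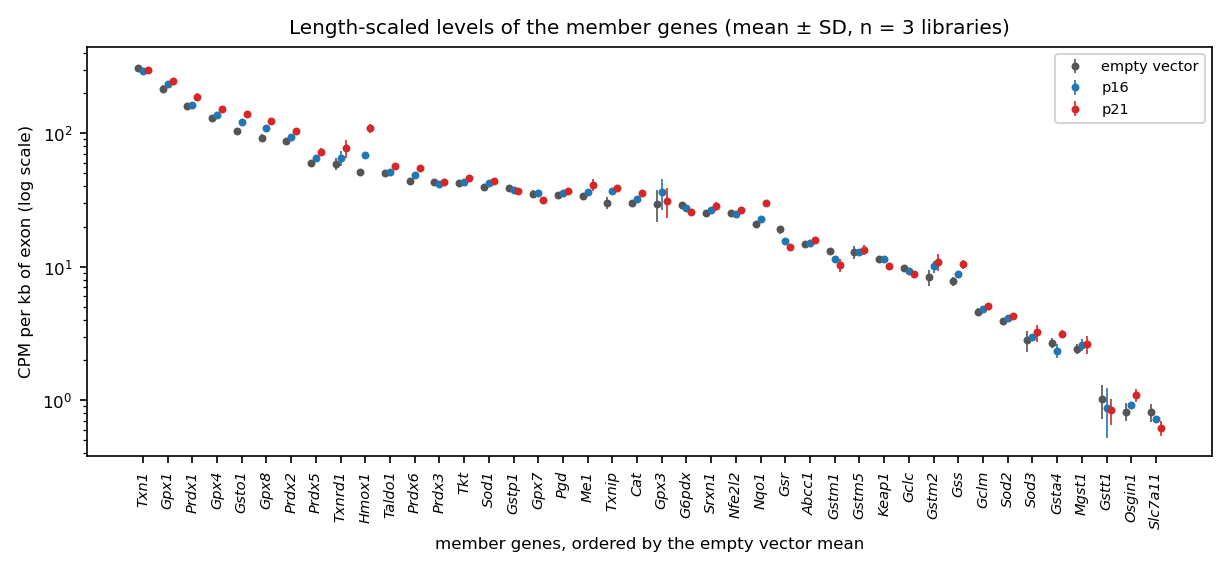
Mean level of each of the 42 genes in CPM per kb of exon (log scale), with the SD over 3 libraries, in the empty vector (grey), p16 (blue) and p21 (red) groups, ordered by the empty vector mean. Levels ran from Txn1 at 310.4 ± 10.5 to Slc7a11 at 0.812 ± 0.120 CPM per kb in the controls, and Hmox1 shows the widest gap between group means on this scale.

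Promoter windows from RefSeq (GRCm38.p6, 250 bases before to 50 after an annotated start) were matched by symbol for 35 of the 42 genes, all but Hmox1, Gclc, Gsr, Prdx6, Gsta4, Abcc1 and Sod3. They were searched on both strands for the core of the antioxidant response element, TGACNNNGC, where N is any base. The core was in a window of 11 of these 35 genes (31.4%) and of 13.99% of all 27025 genes with a window. The form TGACTCAGC, which also holds the AP-1 site TGACTCA, was in 2 of the 35, Prdx1 and Me1, and in 0.503% of all genes. Of the 11, Srxn1, Prdx1, Txnrd1, Sod1, Pgd and Me1 passed the test as higher with p21, G6pdx passed as lower, and Nfe2l2, Gclm, Gstm5 and Mgst1 did not pass. Of all 42 genes, with or without a core, 22 (52.4%) passed as higher and 7 (16.7%) as lower. Genes with no core in their windows were in both directions, Nqo1 and Gss as higher and Keap1 and Gpx7 as lower. Whether the core goes with a rise was not tested. A match is a string of letters and not a shown binding site, and elements farther from a start lie outside these windows. The sequences below show the core in 4 of the genes that rose with p21 and in the gene that fell. Each reads in the direction of its gene with the core (on either strand) in capitals. Those of Prdx1 (chr4:116685450-116685490, plus strand), Me1 (chr9:86695896-86695936, minus strand), Txnrd1 (chr10:82859098-82859138, plus strand) and G6pdx (chrX:74428913-74428953, minus strand) have the core starting 133, 6, 92 and 57 bases upstream of an annotated start site. Windows at other annotated starts of Me1 and Txnrd1 held no core. In Srxn1 (chr2:152105536-152105573, plus strand) the core begins at base 29 of the transcript.
Prdx1: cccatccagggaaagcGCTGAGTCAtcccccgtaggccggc
Me1: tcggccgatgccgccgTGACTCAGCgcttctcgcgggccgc
Txnrd1: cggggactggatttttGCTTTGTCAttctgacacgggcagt
Srxn1: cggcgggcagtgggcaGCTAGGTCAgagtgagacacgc
G6pdx: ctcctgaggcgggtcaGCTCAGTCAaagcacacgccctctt

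Which of these transcripts differed once p21 was supplied was read from the p21 and empty vector libraries. The heme oxygenase gene Hmox1 rose 2.14-fold and the quinone reductase gene Nqo1 1.43-fold. Among the 42 genes, 4 of 5 peroxiredoxins, 3 of 5 glutathione peroxidases and 4 of 5 genes listed under NADPH supply rose by less. The glutathione reductase gene Gsr, the cystine importer gene Slc7a11 and G6pdx, of the NADPH list, fell. Of the 42 genes, 22 rose (52.4%) and 7 fell (16.7%) at an edgeR adjusted p under 0.05, where 19.8% of all genes tested rose and 20.1% fell. The 42 genes were chosen with earlier results of these data known. These shares, and those of the comparisons below, therefore describe the set and are no independent evidence. The median log2 fold change was 0.15 for the 42 genes and 0.0011 for all genes tested, and the median size regardless of sign was 0.21 and 0.19. Libraries of the 2 groups did not overlap for 29 of the 42 genes and for 49.1% of all genes. With libraries scaled by their totals alone, 18 of the 42 rose and 9 fell, and all genes split into 2173 higher and 3734 lower in place of 2816 and 2865. The number that fell was 4 without control replicate 2, without p21 replicate 1 or without p21 replicate 2. Of all genes, 2363 to 2699 fell in those fits. With replicates 1 and 2 alone 22 rose and 6 fell, where 2711 of all genes rose and 2809 fell.

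**Figure D2:**
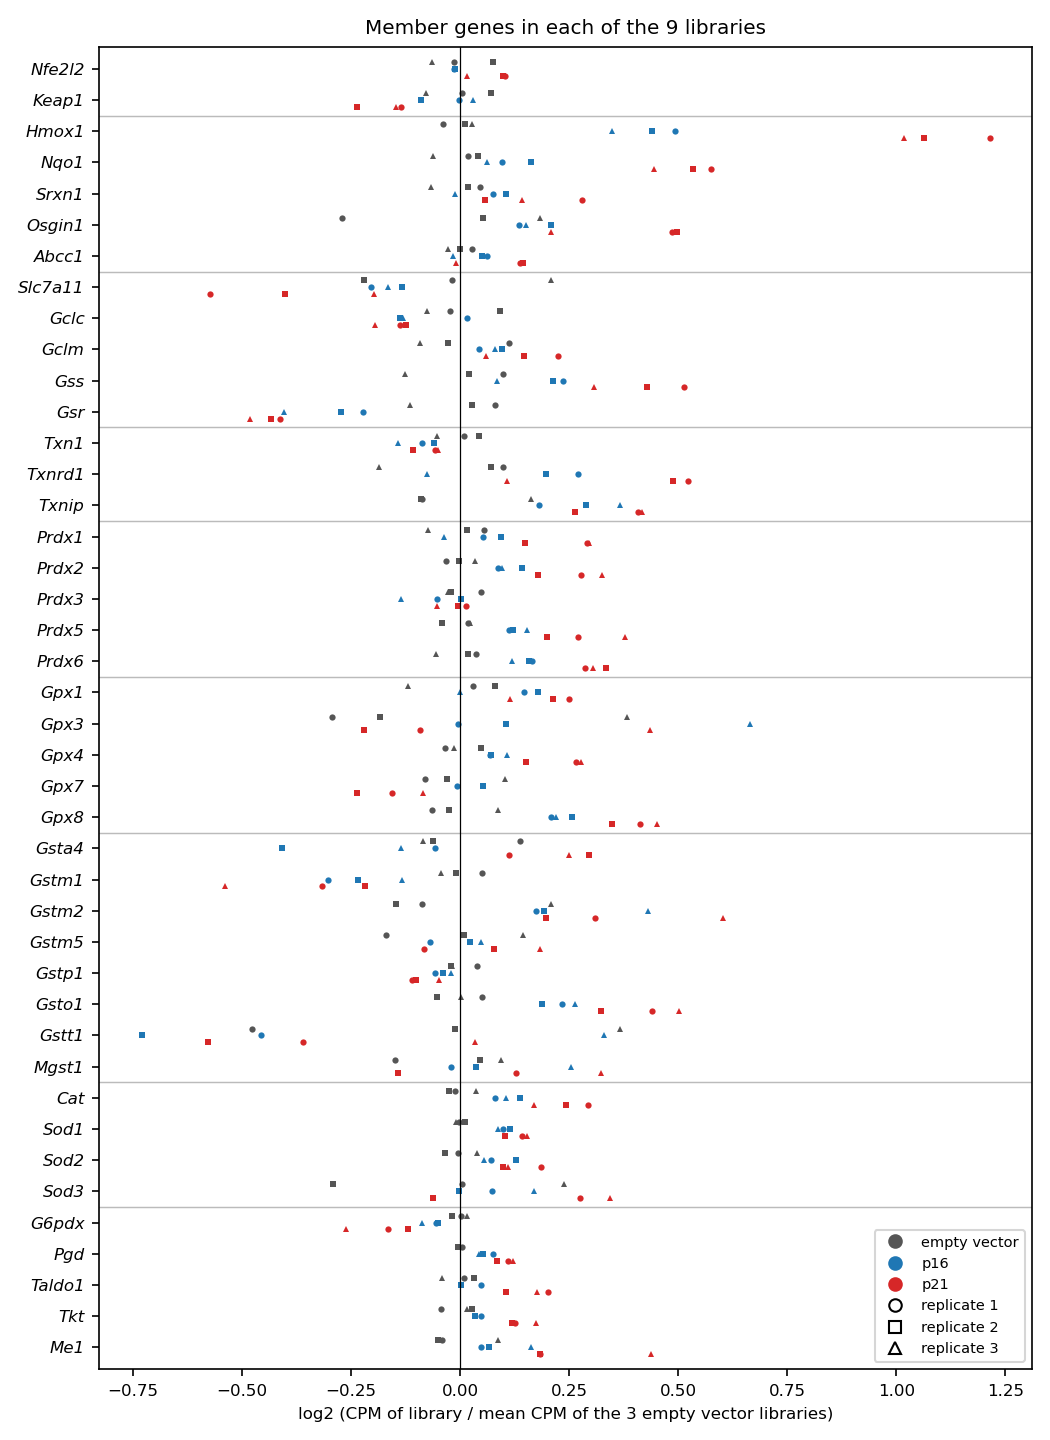
Each point is 1 library: log2 of its CPM over the mean CPM of the 3 empty vector libraries, for the 42 genes in the order of their roles (grey lines separate roles), with the group as colour and the replicate number as shape. For Hmox1 the 3 p21 libraries lie at 180.3 to 207 CPM against 86.6 to 90.7 CPM in the controls, and for Gpx3 and Txnrd1 the replicate 3 libraries lie apart from the others of their group.

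The roles that follow are lists of 2 to 8 genes. Their counts are to be read beside all genes tested, of which 19.8% rose and 20.1% fell with p21. Of the 2 regulators 1 passed, as lower, and the median log2 fold change was -0.050. Nfe2l2 stood at 94.9, 101 and 91.6 CPM in the control libraries and at 103, 103 and 96.8 with p21. The groups overlapped, and the log2 fold change of 0.073 ± 0.043 (SE) did not pass the test (edgeR adjusted p = 0.202). Keap1, whose product brings NRF2 to a ubiquitin ligase, went from 54.1, 56.6 and 51.0 to 49.0, 45.7 and 48.7 CPM. All 3 p21 libraries were below all 3 controls, and Keap1 fell (-0.17 ± 0.052, edgeR adjusted p = 0.0183), a call that ended (highest edgeR adjusted p = 0.0832) when control replicate 2 or p21 replicate 2 was left out. Of its exon bases 10.9% are shared with Gm16754, an antisense gene, whose reads the library kit does not separate.

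Inducible NRF2 targets held the largest rise of the set, with 3 of 5 higher, 0 lower and a median of 0.41. Hmox1 (chromosome 8, 75093621 to 75100589, in GRCm38), which breaks down heme to biliverdin, carbon monoxide and iron, was at 86.6, 89.8 and 90.7 CPM in the controls and 207, 186 and 180.3 CPM with p21. The lowest p21 library was well above the highest control, with a log2 fold change of 1.10 ± 0.053 (SE, edgeR adjusted p = 3.56e-08). Nqo1, whose product reduces quinones, went from 33.1, 33.6 and 31.4 to 48.7, 47.3 and 44.6 CPM, again without overlap (0.52 ± 0.049, edgeR adjusted p = 5.59e-06). Macrophages also make heme oxygenase. Of 17 tested leukocyte markers 7 rose (41.2%) and 0 fell with p21, where 19.8% of all genes tested rose and 20.1% fell. For these markers the counts were 12 and 0 with the replicate block and 9 and 0 with replicates 1 and 2 alone. Their summed level was highest in replicate 3 of each group. That library held the least Hmox1 of the p21 group but the most Hmox1 of the control group. The part of these markers in the rise of Hmox1 was not tested. Srxn1, the sulfiredoxin that restores oxidised peroxiredoxins, rose by 0.16 ± 0.058 (edgeR adjusted p = 0.0408). That call ended without control replicate 2, control replicate 3, p21 replicate 1 or 3, or replicate 3 of every group (highest edgeR adjusted p = 0.190), with only the 2 groups fitted and with library totals. Osgin1 (0.41 ± 0.15, edgeR adjusted p = 0.0526) and the drug and glutathione conjugate exporter gene Abcc1 (0.093 ± 0.042, edgeR adjusted p = 0.0976) did not pass, although the Osgin1 libraries did not overlap. With the replicate block both did, at edgeR adjusted p = 0.0334 and 0.0220, and both also passed without p21 replicate 3 and with replicates 1 and 2 alone, Osgin1 without control replicate 3 and with limma-voom as well.

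Genes of glutathione supply went both ways, with 1 of 5 higher, 3 lower and a median of -0.15. Gsr, the reductase that returns oxidised glutathione to its reduced form, stood at 55.3, 53.4 and 48.3 CPM in the controls and 39.3, 38.7 and 37.5 with p21. Every p21 library was below every control (-0.44 ± 0.059, edgeR adjusted p = 9.49e-05). Gss, the synthetase of the final step of glutathione synthesis, went the other way, from 49.3, 46.7 and 42.2 to 65.7, 62.0 and 57.0 CPM (0.42 ± 0.068, edgeR adjusted p = 4.07e-04). It shares 15.4% of its exon bases with Acss2 and 2 antisense genes on the other strand, and Acss2 itself did not pass (-0.078 ± 0.096, edgeR adjusted p = 0.556). Slc7a11, which brings in cystine for glutathione, was 11.2, 9.71 and 13.1 CPM in the controls and 7.60, 8.55 and 9.86 with p21. The groups overlapped slightly, and the fall (-0.38 ± 0.11, edgeR adjusted p = 0.0187) ended (highest edgeR adjusted p = 0.0855) when control replicate 3 or p21 replicate 1 was left out. Gclc, the catalytic subunit of the rate-limiting ligase of glutathione synthesis, stood at 36.2, 39.2 and 34.9 CPM in the controls and 33.4, 33.7 and 32.1 with p21, and fell slightly (-0.15 ± 0.056, edgeR adjusted p = 0.0448), a call lost without control replicate 1 or 2, without any single p21 library, without replicate 3 of every group (highest edgeR adjusted p = 0.195) and with DESeq2. Gclm, its modifier subunit, had 0.15 ± 0.058 (edgeR adjusted p = 0.0659), and passed as higher with the block (edgeR adjusted p = 0.0253) and without control replicate 1 or p21 replicate 3.

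In the thioredoxin system 2 of 3 genes rose and 0 fell, with a median of 0.37. Txn1 was 328, 336 and 314 CPM in the controls and 313, 303 and 315 with p21 (-0.072 ± 0.035, edgeR adjusted p = 0.117). It passed as lower with library totals and with replicates 1 and 2 alone (lowest edgeR adjusted p = 0.0293 over the fits with libraries left out). Txnrd1, the selenium enzyme that reduces thioredoxin, went from 449, 441 and 369 to 604, 589 and 453 CPM. Replicate 3 was the lowest library in both groups, the groups did not overlap, and the log2 fold change was 0.38 ± 0.11 (edgeR adjusted p = 0.0154, 4.71e-10 with the replicate block). Without the block the call was lost when control replicate 3, p21 replicate 1 or p21 replicate 2 was left out (highest edgeR adjusted p = 0.0719). Txnip, which binds thioredoxin and limits glucose uptake, rose from 88.9, 88.7 and 106 to 125, 113 and 126 CPM (0.37 ± 0.071, edgeR adjusted p = 0.00137). Of its exon bases 19.4% are shared with the antisense gene Gm15441.

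The listed peroxiredoxins had 4 of 5 higher, 0 lower and a median of 0.26, and these 4 calls held under all 15 alternatives. Prdx4, a peroxiredoxin outside these 5, fell with p21 and is given with the other enzymes below. Prdx6, a peroxiredoxin that draws on glutathione, stood at 216, 214 and 203 CPM in the controls and 258, 266 and 261 with p21 (0.31 ± 0.033, edgeR adjusted p = 1.43e-05). Prdx1 and Prdx2, the abundant cytosolic forms, rose by 0.25 ± 0.048 and 0.26 ± 0.038, and Prdx5 by 0.28 ± 0.044. Prdx5 shares 19.1% of its exon bases with Trmt112 on the opposite strand, which fell (-0.28 ± 0.049, edgeR adjusted p = 7.13e-04). Prdx3, the mitochondrial form, did not pass (-0.014 ± 0.046, edgeR adjusted p = 0.836), and its sign turned without control replicate 1 or p21 replicate 3.

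Glutathione peroxidases had 3 of 5 higher, 1 lower and a median of 0.19. Gpx8, an enzyme of the endoplasmic reticulum membrane, showed the largest rise, from 92.9, 95.6 and 103 to 129, 124 and 133 CPM (0.41 ± 0.045, edgeR adjusted p = 2.04e-05). Its relative Gpx7, also of the endoplasmic reticulum, fell slightly from 42.8, 44.3 and 48.6 to 40.6, 38.4 and 42.6 CPM (-0.16 ± 0.055, edgeR adjusted p = 0.0392). That call ended without control replicate 2, control replicate 3, p21 replicate 1 or 2, or replicate 3 of every group (highest edgeR adjusted p = 0.190), and with only the 2 groups fitted. Gpx4 rose by 0.23 ± 0.038 and Gpx1 by 0.19 ± 0.057. The call of Gpx1 was lost with library totals and without control replicate 3 or p21 replicate 1 or 2 (highest edgeR adjusted p = 0.0750). Gpx3, the secreted form, had 0.074 ± 0.21 (edgeR adjusted p = 0.811), and its sign turned without control replicate 1 or 2 or p21 replicate 3.

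Glutathione transferases had 2 of 8 higher (25%), 1 lower (12.5%) and a median of 0.092. These shares were near those of all genes tested, 19.8% higher and 20.1% lower. Gsto1, which reduces mixed disulfides and other substrates, rose from 216, 201 and 209 to 283, 261 and 296 CPM (0.42 ± 0.045, edgeR adjusted p = 1.47e-05). Gstm1 fell from 20.2, 19.4 and 18.9 to 15.6, 16.7 and 13.4 CPM (-0.35 ± 0.079, edgeR adjusted p = 0.00345) while its neighbour Gstm2 rose (0.38 ± 0.12, edgeR adjusted p = 0.0201). The Gstm2 libraries overlapped between the groups, and leaving out control replicate 1, control replicate 2 or p21 replicate 3 ended its call (highest edgeR adjusted p = 0.0845). Gstm genes are close copies on chromosome 3, as Gstp1 is of its Gstp neighbours, so the split of reads between them is uncertain. Gsta4, Gstm5, Gstp1, Gstt1 and Mgst1 did not pass, with log2 fold changes from -0.27 to 0.22. Gstp1 passed as lower with library totals.

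Catalase and the superoxide dismutases had 3 of 4 higher, 0 lower and a median of 0.17. Cat, the peroxisomal enzyme that splits hydrogen peroxide, rose from 77.9, 77.1 and 80.5 to 96.2, 92.9 and 88.2 CPM (0.24 ± 0.042, edgeR adjusted p = 7.91e-04). Sod1, the cytosolic copper and zinc enzyme, rose by 0.13 ± 0.030 and Sod2, the mitochondrial manganese enzyme, by 0.13 ± 0.043, from 38.9, 38.1 and 40.1 to 44.3, 41.7 and 42.1 CPM. The Sod2 call ended when control replicate 1, control replicate 2 or p21 replicate 1 was left out (highest edgeR adjusted p = 0.0979), with library totals and without the filter. Sod3, the secreted enzyme, had 0.20 ± 0.13 (edgeR adjusted p = 0.236, 0.0346 with the block).

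Of the 5 genes listed under NADPH supply 4 rose and 1 fell, with a median of 0.14. Taldo1 and Tkt of this list make no NADPH themselves, but carry carbon from the pentose phosphate pathway back to glycolysis. G6pdx, the X-linked gene of the enzyme that opens the pentose phosphate pathway, fell from 89.2, 88.0 and 90.2 to 79.5, 82.0 and 74.4 CPM (-0.18 ± 0.042, edgeR adjusted p = 0.00460). It shares 13.6% of its exon bases with Ikbkg on the opposite strand, which rose (0.48 ± 0.042, edgeR adjusted p = 3.22e-06). Later genes of the pathway rose, Taldo1 by 0.16 ± 0.038 and Tkt by 0.14 ± 0.030. Pgd, the step after G6pdx that also yields NADPH, went from 223, 222 and 223 to 240.4, 236 and 242 CPM (0.10 ± 0.027). Me1, the cytosolic malic enzyme, rose from 127, 126 and 139 to 148, 148 and 177 CPM (0.27 ± 0.065, edgeR adjusted p = 0.00538). The call of Pgd was lost with library totals and with replicates 1 and 2 alone (highest edgeR adjusted p = 0.0518 over the fits with libraries left out).

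The p16 libraries were compared with the same 3 empty vector libraries, so the p16 values are set beside those of p21 and are not separate evidence of a direction. Changes were smaller and fewer. Hmox1 rose 1.35-fold, Txnip 1.22-fold and Gsr fell to 0.814 of the control level, while Nqo1, the second largest rise with p21, did not pass. Of the 42 genes 6 rose (14.3%) and 1 fell (2.38%), where 5.8% of all genes rose and 5.56% fell. The median log2 fold change was 0.077 for the 42 genes and 0.0017 for all genes tested. Libraries did not overlap for 19 of the 42 genes and for 32.7% of all genes. With the replicate number as a block 13 rose and 3 fell, where 1602 of all genes rose and 1442 fell. Without p16 replicate 2 only 3 rose, where 404 of all genes rose. With library totals 5 rose and 2 fell, and all genes split into 617 higher and 1235 lower in place of 825 and 791.

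Hmox1 stood at 125, 121 and 113 CPM in the p16 libraries, each between the highest control and the lowest p21 library (0.43 ± 0.053, edgeR adjusted p = 6.36e-04). Leukocyte markers had 0 of 17 tested genes called in either direction with p16 by edgeR, 4 at an unadjusted p under 0.05, 2 higher with DESeq2, 0 with limma-voom and 6 higher with the replicate block. As with p21 but not in the controls, the library of the group with the highest sum of these markers, replicate 3, held the least Hmox1. The part of these markers in the rise of Hmox1 was not tested. Gsr was 44.9, 43.3 and 39.5 CPM, below every control (-0.30 ± 0.059, edgeR adjusted p = 0.00778). The calls of Hmox1, Gsr, Gpx8 and Gsto1 held under all 15 alternatives.

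Gpx8 was 112, 116 and 113 CPM with p16 and rose by 0.23 ± 0.045 (edgeR adjusted p = 0.00709). Gsto1 was 245, 238 and 250.3 CPM and rose by 0.23 ± 0.045 (edgeR adjusted p = 0.00734). In both genes the p16 libraries lay above every control and below every p21 library. Prdx6, at 237, 236 and 229 CPM, rose by 0.15 ± 0.033 (edgeR adjusted p = 0.0133), a call lost without control replicate 3, p16 replicate 1 or p16 replicate 2 (highest edgeR adjusted p = 0.0681). Txnip, at 107, 115 and 122 CPM, rose by 0.28 ± 0.071 (edgeR adjusted p = 0.0240), a call that ended (highest edgeR adjusted p = 0.103) when control replicate 1 or 2, or p16 replicate 2 or 3, was left out. Sod1 went from 158, 159 and 157 CPM in the controls to 169, 171 and 168 with p16 (0.10 ± 0.030, edgeR adjusted p = 0.0473). Leaving out any one library of either group, replicate 3 of all groups, the filter or the delivered genes, or scaling by totals, ended the Sod1 call (highest adjusted p 0.177 over the alternatives).

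Neither regulator passed with p16, with Nfe2l2 at 95.0, 95.1 and 95.0 CPM (-0.012 ± 0.043, edgeR adjusted p = 0.897) and Keap1 at 53.8, 50.7 and 55.0 CPM (-0.020 ± 0.051, edgeR adjusted p = 0.855). Both estimates changed sign without control replicate 2, and that of Keap1 also without p16 replicate 2. Among the other inducible targets Nqo1 was 35.0, 36.6 and 34.1 CPM (0.11 ± 0.049, edgeR adjusted p = 0.190), above the controls in every library but short of the threshold. Of the 5 genes listed under NADPH supply 0 passed by edgeR, with log2 fold changes from -0.064 to 0.093, 0 at an unadjusted p under 0.05, 0 with the block and 0 with DESeq2 or limma-voom. Slc7a11 was 9.81, 10.3 and 10.1 CPM and overlapped the controls (-0.16 ± 0.11, edgeR adjusted p = 0.396).

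The replicate block added 9 members to those that passed with p16. It called 7 as higher. These were Gss (0.18 ± 0.068, edgeR adjusted p = 0.113 without and 0.00256 with the block), the peroxiredoxins Prdx2 (0.11 ± 0.038, 0.0889 and 0.0251) and Prdx5 (0.13 ± 0.044, 0.0790 and 0.0111), Gpx1 (0.11 ± 0.057, 0.250 and 0.0110), Gstm2 (0.27 ± 0.12, 0.162 and 0.00247), and Gpx3 and Txnrd1, described with the replicate numbers below. Txn1 (-0.097 ± 0.035, edgeR adjusted p = 0.0940 without and 0.0348 with the block) and Gstm1 (-0.22 ± 0.078, 0.0895 and 0.0272) were called lower. The p16 libraries of Txn1, 307, 313 and 295 CPM, lay below every control.

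Setting p21 directly against p16 compares the libraries of these 2 groups. Which gene was delivered and how far its level was raised cannot be told apart in this comparison. The controls enter it only through the filter, the scaling and the shared estimate of spread. Among the genes that passed, the heme oxygenase and quinone reductase genes had the largest differences. Glutathione synthetase and 4 of the 5 listed peroxiredoxins were also higher with p21. Of the 42 genes 12 were higher with p21 (28.6%) and 1 was lower (2.38%), where 6.15% of all genes were higher and 6.91% lower. The median log2 difference was 0.085 for the 42 genes and -0.0019 for all genes tested, and libraries did not overlap for 22 of the 42 and 31.2% of all genes. Without p21 replicate 1 only 3 of the 42 were higher, where 497 of all genes were. Leaving out any single p16 library gave 5 higher, where 498 to 597 of all genes were. With only the 2 groups fitted 10 were higher and 1 lower, where 707 and 770 of all genes were. With the replicate block 17 were higher and 5 lower, where 1566 and 1648 of all genes were. With library totals all genes split into 735 higher and 1254 lower in place of 875 and 983.

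**Figure D3:**
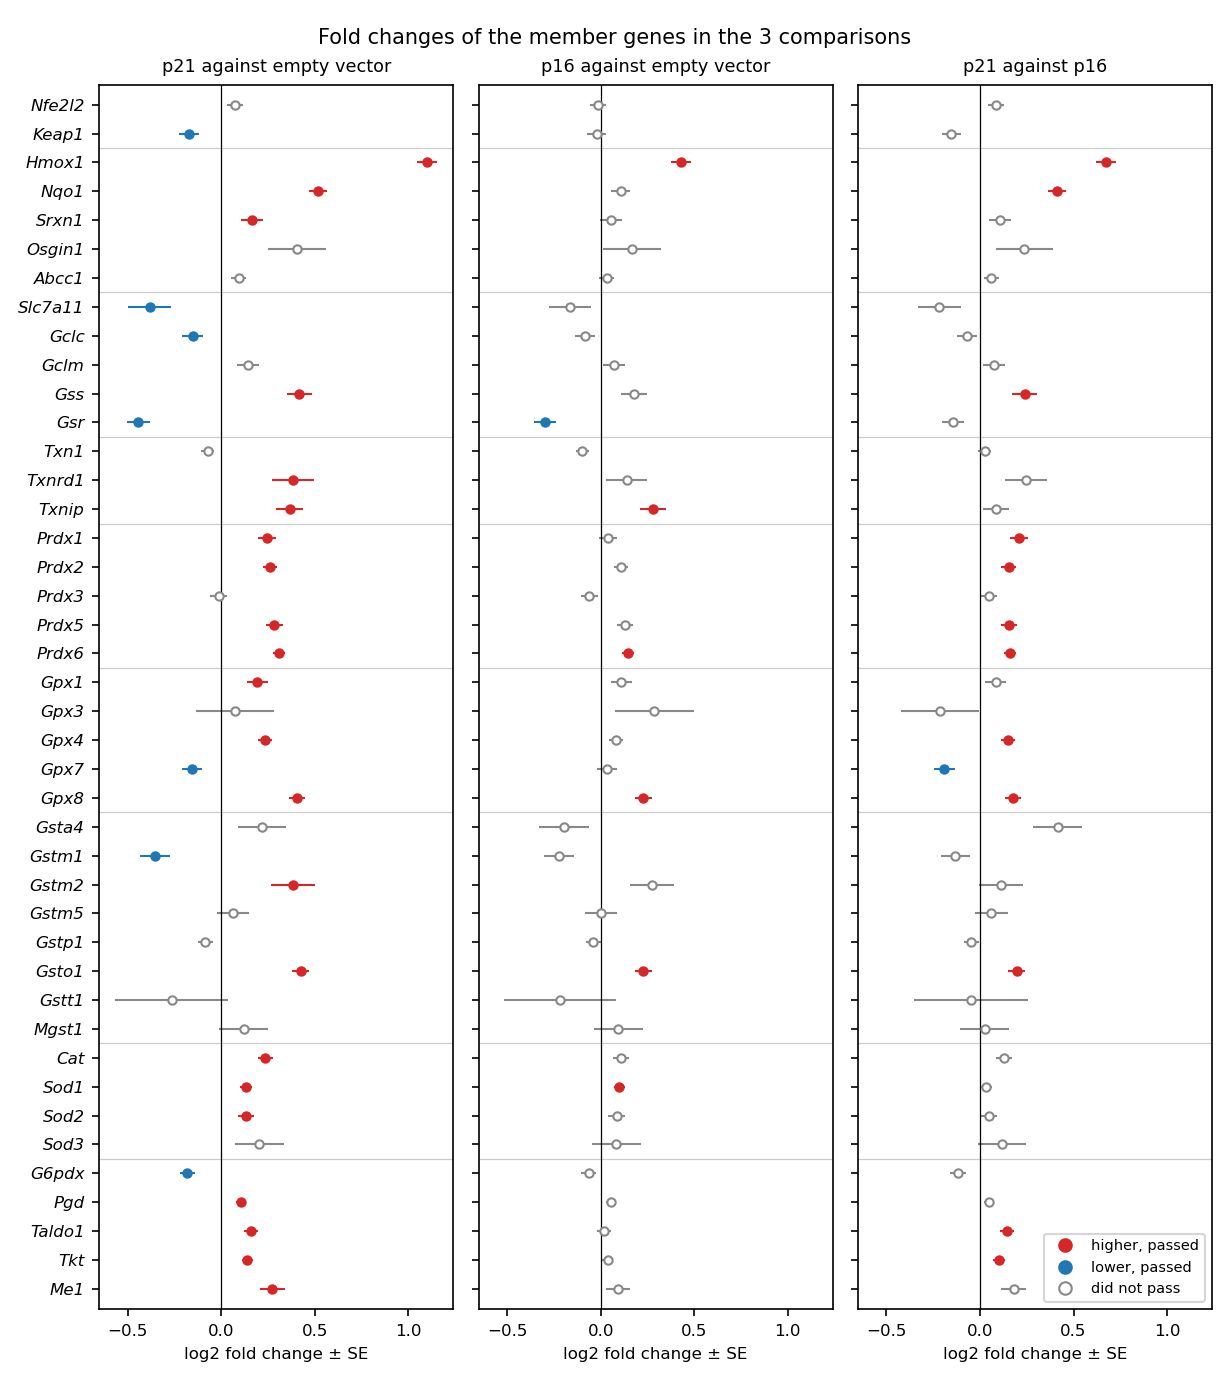
Log2 fold change with its SE for each of the 42 genes, grouped by role, in p21 against empty vector, p16 against empty vector and p21 against p16, with red for genes that passed as higher, blue for lower and open grey for not passed. In the left panel 22 genes are red and 7 blue, in the middle panel 6 and 1, and in the right panel 12 and 1.

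Hmox1 was 1.59-fold higher with p21 than with p16 (log2 difference 0.67 ± 0.053, edgeR adjusted p = 7.98e-06). Nqo1 was 1.33-fold higher (0.41 ± 0.049, edgeR adjusted p = 1.90e-04), and its p16 libraries lay closer to the controls than to the p21 libraries. Prdx6 differed by 0.16 ± 0.032 (edgeR adjusted p = 0.00652). These 3 calls held under all 15 alternatives, and the other 10 were lost in at least 1 fit with a library left out, p21 replicate 1 among them in every case.

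Glutathione synthetase Gss was 54.3, 53.4 and 48.9 CPM with p16, and its p21 libraries were higher by 0.24 ± 0.068 (edgeR adjusted p = 0.0367). Prdx1 was 500.4, 515 and 471 CPM with p16 and 591, 536 and 593 with p21 (0.21 ± 0.048, edgeR adjusted p = 0.0134). Prdx2 went from 281, 292 and 283 CPM with p16 to 321, 299.7 and 332 with p21 (0.15 ± 0.038). All 3 genes were without overlap between the groups. Prdx5 differed by 0.15 ± 0.044, with 138, 138 and 142 CPM in the p16 libraries and 153, 146 and 165 in the p21 libraries, a call also lost with library totals and with only the 2 groups fitted. Gsto1 and Gpx8 differed by 0.20 ± 0.045 and 0.18 ± 0.045. Gpx4, which protects membranes from lipid peroxides, was 235, 235 and 241 CPM with p16 and 269, 249 and 271 with p21 (0.15 ± 0.038, edgeR adjusted p = 0.0231). Gpx4 libraries did not overlap. The transaldolase gene Taldo1 stood at 113, 109.8 and 109.9 CPM with p16 and 126, 118 and 124 with p21 (0.14 ± 0.038). The transketolase gene Tkt stood at 321, 318 and 318 and 339, 338 and 351 CPM (0.10 ± 0.030, edgeR adjusted p = 0.0431). Both carry carbon from the pentose phosphate pathway back to glycolysis, and the Tkt call was lost without any single library of either group (highest edgeR adjusted p = 0.171). Gpx7 was the one gene lower with p21, at 45.0, 46.9 and 46.9 CPM with p16 (-0.19 ± 0.055, edgeR adjusted p = 0.0399).

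Among members that did not pass here, Keap1 differed by -0.15 ± 0.052 (edgeR adjusted p = 0.0731, 0.0237 with the block) and Gsr by -0.15 ± 0.060 (edgeR adjusted p = 0.134, 0.0206 with the block), both lower with p21 in every library. Gsta4, a transferase that conjugates products of lipid peroxidation, was 3.74, 3.26 and 3.20 CPM in the controls, 3.27, 2.56 and 3.10 with p16 and 3.67, 4.17 and 4.05 with p21. The p21 libraries were all above the p16 libraries (0.41 ± 0.13, edgeR adjusted p = 0.0569, 0.0245 with the block). With the block Txnrd1 (0.25 ± 0.11, edgeR adjusted p = 0.173 without and 2.53e-06 with it), Gpx1 (0.083 ± 0.057, 0.387 and 0.0466), Cat (0.13 ± 0.042, 0.0650 and 0.0223) and Me1 (0.18 ± 0.065, 0.0923 and 8.80e-04) also passed as higher with p21. Gpx3 (-0.21 ± 0.21, edgeR adjusted p = 0.571 and 0.00146) and G6pdx (-0.12 ± 0.042, 0.0913 and 0.0323) then passed as lower.

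Gpx3 and Txnrd1 differed by replicate number in every group. Gpx3 was 70.0, 85.1 and 72.6 CPM in the replicate 3 libraries of the control, p16 and p21 groups, above all other libraries of the 3 groups. Its log2 differences between p16 and control libraries of the same number were 0.29, 0.29 and 0.28. The fit without the block gave 0.29 ± 0.21 (edgeR adjusted p = 0.430), and the fit with it called the gene higher with p16 (edgeR adjusted p = 6.90e-05). Txnrd1 went the other way, lowest in replicate 3 of every group, with 507, 482 and 398 CPM in the p16 libraries. Its same-number differences were 0.17, 0.13 and 0.11 for p16 and 0.43, 0.42 and 0.29 for p21. The p16 difference did not pass without the block (edgeR adjusted p = 0.476), and passed with it (0.00244) and with replicates 1 and 2 alone (edgeR adjusted p = 0.0164). For Slc7a11 the same-number differences between p21 and controls were -0.55, -0.18 and -0.41, negative in all 3 but widely spread. The replicate 3 libraries are also those with Xist, and what else differed with the replicate number was not tested.

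**Figure D4:**
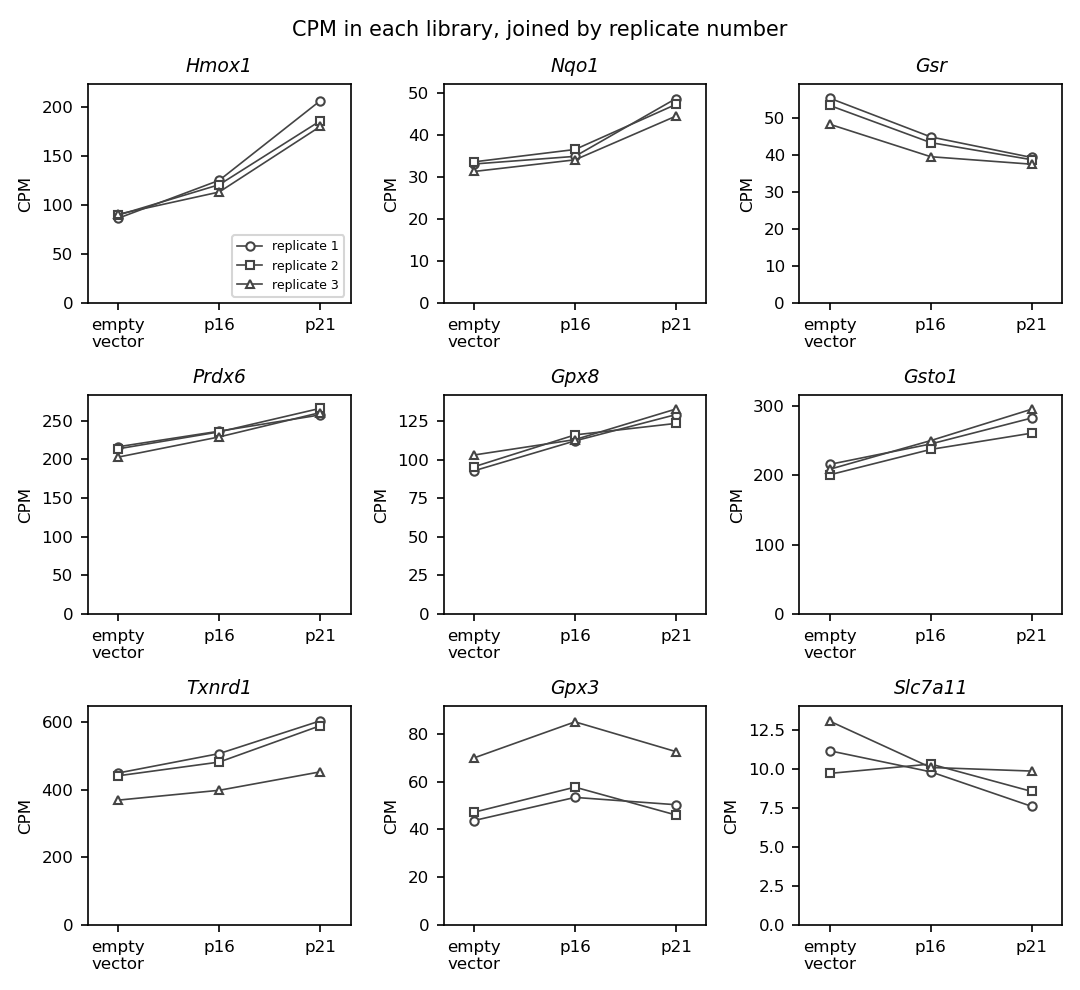
CPM of 9 of the 42 genes in each library (linear axis from 0), with lines joining libraries of the same replicate number from the empty vector to p16 and p21. The lines of Hmox1, Nqo1, Prdx6 and Gsto1 climb and those of Gsr descend in all 3 replicates, and for Gpx3 and Txnrd1 the replicate 3 line runs apart from the other 2.

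The lists that follow were also chosen with earlier results of these data known, and are to be read beside all genes tested. With p21, 19.8% of these rose and 20.1% fell, and with p16 5.8% and 5.56%. With the block 3410 of 14223 rose and 3446 fell with p21, and 1602 and 1442 with p16. Beyond the 42 genes, NRF2's partners and turnover genes had 5 of 11 higher and 2 lower with p21 (median log2 fold change 0.10, 6 and 2 with the block), and 4 higher and 0 lower with p16 (median 0.044). With p16, Cul3 passed as lower with the block (edgeR adjusted p = 0.0387), giving 4 higher and 1 lower, and library totals gave 3 and 1. Mafk, a small MAF protein with which NRF2 binds DNA, rose by 0.61 ± 0.045 with p21 (edgeR adjusted p = 7.58e-07) and by 0.31 ± 0.045 with p16 (edgeR adjusted p = 0.00140). Sqstm1, the p62 protein that draws KEAP1 into autophagy, rose by 0.38 ± 0.034 and 0.31 ± 0.034, and Nfe2l1, a relative of NRF2, by 0.28 ± 0.031 and 0.12 ± 0.031. The p16 call of Nfe2l1 was lost with library totals and without any single control library or p16 replicate 2 or 3 (highest adjusted p 0.105 over the alternatives). Bach1, a repressor of Hmox1, and Cul3, the ligase scaffold that works with KEAP1, fell with p21 (log2 fold changes -0.20 and -0.19).

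A second list of NRF2 targets had 9 of 16 tested genes higher and 0 lower with p21 (median 0.22, 11 and 0 with the block), and 4 and 0 with p16 (median 0.13, 7 higher and 1 lower with the block). The ferritin chains Ftl1 and Fth1, which store the iron that heme breakdown releases, rose by 0.32 ± 0.035 and 0.23 ± 0.031 with p21, and Esd, an esterase that takes part in clearing formaldehyde, by 0.36 ± 0.044. With p16, Ftl1 rose by 0.14 ± 0.035, Akr1a1, an aldehyde reductase, by 0.13 ± 0.030 and Cbr3, a carbonyl reductase, by 0.34 ± 0.090. Each of these 3 calls with p16 was lost in 4 or more fits with libraries left out.

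Among other glutathione and thioredoxin enzymes 9 of 25 tested were higher and 2 lower with p21 (median 0.18, 10 and 2 with the block), and 2 higher and 1 lower with p16 (median 0.075, 5 and 1 with the block). The methionine sulfoxide reductase Msrb1, a selenoprotein, rose by 0.54 ± 0.048 with p21 and 0.27 ± 0.048 with p16. Txn2, the mitochondrial thioredoxin, rose by 0.25 ± 0.033 and 0.13 ± 0.033. Its p16 call was lost without any single library of the 2 groups, with library totals and with replicates 1 and 2 alone (highest adjusted p 0.0880 over the alternatives). Prdx4, the peroxiredoxin of the endoplasmic reticulum, fell with both, at -0.24 ± 0.036 and -0.17 ± 0.036. Genes of glutathione breakdown and cysteine supply had 3 of 10 tested higher and 1 lower with p21 (median 0.0085, 4 and 2 with the block), and 0 called with p16 by edgeR (median 0.052, 2 at an unadjusted p under 0.05, 1 higher with the block, 0 with DESeq2 or limma-voom). Ggct, Oplah and Cndp2, enzymes that take glutathione or its fragments apart, rose with p21 by 0.65 ± 0.11, 0.71 ± 0.15 and 0.19 ± 0.053. The call of Cndp2 was lost without p21 replicate 1 or 3 or with replicates 1 and 2 alone.

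Other NADPH enzymes had 3 of 14 higher and 6 lower with p21 (median -0.040), and 1 higher and 2 lower with p16 (median -0.071, 1 and 3 with the block). Idh2, the mitochondrial isocitrate dehydrogenase, fell to 0.678 of the control level with p21 and 0.836 with p16 (edgeR adjusted p = 7.02e-06 and 0.00980). Mthfd1, of the folate cycle, had -0.33 ± 0.049 and -0.24 ± 0.049, both called lower. Aldh1l1, another folate enzyme, rose with p21 by 0.69 ± 0.10 and had -0.15 ± 0.11 with p16 (edgeR adjusted p = 0.432). Genes that make oxidants had 5 of 12 tested higher and 0 lower with p21 (median 0.53, 6 and 0 with the block), and 1 higher and 0 lower with p16 (median 0.31, 4 higher with the block). Cyba, a subunit of NADPH oxidases, rose by 0.36 ± 0.046 with p21 and Aox1, aldehyde oxidase, by 0.78 ± 0.16. Ncf4, an oxidase subunit best known from phagocytes, was 0.0361, 0.0686 and 0 CPM in the controls, 0.283, 0.175 and 0.306 with p16 and 0.269, 0.181 and 0.418 with p21. It was called higher with both (edgeR adjusted p = 0.0223 and 0.00358) at these low levels, next to the higher sum of leukocyte markers given above, whose part was not tested. No control library reached the filter's minimum count of 10, so Ncf4 was tested only because of its p16 and p21 libraries. The filter thus favoured a rise of Ncf4, which the counts of this list include. With p16 its call was lost with DESeq2, with replicates 1 and 2 alone and without replicate 1 or 3 of either group (highest adjusted p 0.0866 over the alternatives).

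Slc7a11 is also a target of ATF4, the factor of the amino acid stress response. Of 12 genes of that response 4 rose and 5 fell with p21 (median -0.13), Atf4 among those that fell. With p16, 2 rose and 1 fell (median 0.062). With the block 2 rose and 3 fell with p16, Atf4 itself (edgeR adjusted p = 0.0799 without and 0.00217 with the block) and Shmt2, of serine and glycine metabolism (0.133 and 0.00362), being added as lower. Slc7a5, an importer of large neutral amino acids, and Psat1, of serine synthesis, fell with p21 (-0.47 and -0.38), while the stress genes Nupr1 and Ddit3 rose by 0.64 ± 0.071 and 0.45 ± 0.070. Of 17 other selenoproteins and selenium genes 6 rose and 4 fell with p21 (median 0.024, 6 and 5 with the block), and 3 rose and 1 fell with p16 (median 0.016, 5 and 1 with the block). Msrb1, Txnrd2 and Txnrd3 of this list are also counted among the other glutathione and thioredoxin enzymes above. Msrb1 and Sepw1, also called selenoprotein W, rose with p21, the latter by 0.35 ± 0.048, and 2700094K13Rik, also called selenoprotein H, fell to 0.723 of the control level. With library totals the selenium genes had 4 higher and 5 lower with p21 and 1 and 1 with p16, and the second list of NRF2 targets 8 and 1 with p21 and 2 and 1 with p16.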

How the data were processed

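RNA was extracted with RNeasy Micro columns and made into libraries with the TruSeq RNA v2 kit, which keeps no strand, per the labels' protocols. TopHat2 2.0.14, with Bowtie2 2.2.6, placed the reads on mm10 and featureCounts 1.4.6 assigned them to genes, per the submitters' processing notes. The annotation and strand setting are not given in the sources used here. The deposited values are raw counts per gene symbol, made by the authors.

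Counts were scaled by TMM, filtered with filterByExpr (minimum count 10, minimum total 15) and tested with edgeR 4.0.16 (R 4.3.3), two-sided quasi-likelihood F test over all 9 libraries, with 6 residual degrees of freedom. P-values were adjusted by Benjamini-Hochberg over 14223 genes, and a gene passed at an adjusted p under 0.05. The SE is the log2 fold change divided by the root of F. The scripts were tested on simulated data. DESeq2 1.42.0, limma 3.58.1 and 13 other alternatives were run for each comparison. Exon lengths came from GENCODE M21 (GRCm38).

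Same-numbered libraries deviated from their group means together (r from 0.126 to 0.361, other pairs -0.246 to 0.106), a pairing taken from the data and from the numbers in the labels. Library values are given for the 8 highest and 8 lowest members that passed without overlap, for both regulators and for genes discussed by replicate number, and up to 3 genes per other list are named by smallest adjusted p, with a few others chosen after their values were seen. The members and lists were chosen with earlier results of these data known.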

Additional observations from a re-analysis of the deposited data

How the results depend on the processing

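Fits of edgeR's quasi-likelihood test with the replicate number as a block kept all 29, 7 and 13 calls of members (p21 against control, p16 against control, p21 against p16, in that order throughout) and added 4, 9 and 9 more, named in the report. It changed no other call of a member. The block raised all genes called to 3044 with p16 and 3214 in p21 against p16, members higher with p16 to 13, and members lower to 3 with p16 and 5 in p21 against p16. Members lower with p16 were 2 with library totals and 2 with only the 2 groups fitted, and members lower in p21 against p16 were 2 with library totals. Over the fits with libraries left out, all genes called ran from 4617 to 5520 with p21, 759 to 1515 with p16 and 1074 to 1900 in p21 against p16. Members higher ran from 18 to 23, 3 to 8 and 3 to 10, and members lower from 4 to 6, 1 to 2 and 0 to 3. Among single members 1696 values kept direction and side of the threshold, 109 lost and 53 gained a call. Another 32, of 13 members and called in neither fit, changed sign, and the cause was not tested. For p21 against control, fits with libraries left out took Gpx3 from -0.15 to 0.31, Gstm5 from -0.014 to 0.14 and Prdx3 from -0.029 to 0.011. For p16 against control, fits with libraries left out took Gpx7 from -0.0055 to 0.085, Gstm5 from -0.076 to 0.077, Keap1 from -0.084 to 0.015, Nfe2l2 from -0.046 to 0.025, Prdx1 from -7.79e-05 to 0.072, Sod3 from -0.046 to 0.21 and Taldo1 from -0.0045 to 0.032. There, Gstm5 was -0.028 with library totals, Gstm5 was -6.87e-04 with the delivered genes left out and Taldo1 was -0.014 with library totals. For p21 against p16, fits with libraries left out took Gpx3 from -0.44 to 0.020, Gstm2 from -0.013 to 0.20, Gstm5 from -0.0040 to 0.13, Gstt1 from -0.26 to 0.32, Mgst1 from -0.089 to 0.13 and Txn1 from -0.0088 to 0.043. There, Gstt1 was 0.036 with limma-voom. With 3 libraries a group, SEs were large for Gstt1 and Osgin1, at low counts, and for Gpx3, and differences within them were not detectable.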
